A study of Mus musculus with 60 samples.

Results

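The genes described here are 9 enzymes that make serine or handle its carbon: Phgdh, Psat1, Psph, Shmt1, Shmt2, Mthfd1, Mthfd2, Mthfd1l and Aldh1l2. Members were taken as the probe sets (groups of short array probes read as 1 value) whose only annotated gene symbol was 1 of these names. All 9 were measured, among 18193 named genes, and all 9 were among the 13176 genes that varied enough across the arrays to be tested. They were covered by 22 such probe sets, and for each gene the probe set with the widest interquartile range stood for it. A pair of further Phgdh probe sets also carried another symbol and were not used.

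The arrays came from pancreatic islets of adult male pIns-MYCERTAM mice of CBA-C57BL/6 background. An insulin promoter drives a MYC and oestrogen receptor fusion protein in the beta cells of every animal, MycOFF controls included, so other cell types of the islet are not meant to carry it. MycON mice had 1 mg of 4-hydroxytamoxifen daily into the abdomen, which switches the fusion on, and MycOFF mice had peanut oil. Either state was combined with exendin-4 (called exenatide in the sample names, a GLP-1 receptor agonist, 50 µg/kg under the skin) or with water, given from 2 days earlier, and islets were cut out by laser at 4, 8, 16, 32 and 72 h. No group without the fusion had the drug, so effects of the drug itself and of MYC cannot be told apart. Of 60 arrays the submitters left out 8 for poor reproducibility. The 52 others were 12 MycON with exendin-4, 15 MycOFF with exendin-4, 13 MycON with water and 12 MycOFF with water, as 12 groups of 3 and 8 groups of 2. The 3 arrays of a group are called biological replicates but are not tied to named animals, so p-values measure the spread between these samples. One label gives an age of 8 to 12 weeks and another 3 months.

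Serine is made from a glycolytic intermediate, 3-phosphoglycerate, in steps run in turn by the products of Phgdh, Psat1 and Psph. Serine hydroxymethyltransferase then splits serine into glycine and a one-carbon unit carried on folate, in the cytosol (Shmt1) and in mitochondria (Shmt2). The carried unit is used to build purines, thymidylate and methionine. Cytosolic Mthfd1 and mitochondrial Mthfd2, Mthfd1l and Aldh1l2 change its oxidation state or release it as formate or carbon dioxide.

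Each probe set is given on a log2 scale relative to its median in the 60 arrays (its log2 deviation). A value of 1 is a doubling over that median, and levels of different genes cannot be compared. For the same reason the presence of islet hormones could not be read as a level. Markers of islet endocrine cells (17 genes measured) averaged between -1.17 and 0.97 in the kept arrays, and between -7.91 and -1.08 in the 8 arrays left out. In bulk tissue, fewer cells of a type and less RNA per cell cannot be told apart.

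Psat1 rose in MycON islets with either injection and at all 5 times, and none of the other 8 genes did so. Averaged over the 5 times, 2 of the 9 genes rose with exendin-4 (Psat1 and Shmt1) and 4 of 9 with water (Psat1, Shmt2, Mthfd1l and Phgdh), and none fell. A gene counted as changed at a Benjamini-Hochberg adjusted p under 0.05 in limma, adjusted over all 13176 genes. By that rule 4.56% of all genes rose and 1.23% fell with exendin-4, and 3.94% rose and 1.65% fell with water. The median MycON minus MycOFF difference of the 9 genes was 0.60 with exendin-4 and 0.87 with water, with 8 of 9 above 0 in each, while the medians of all genes were -0.02 and -0.03, with 47.84% and 43.34% above 0.

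**Figure D1:**
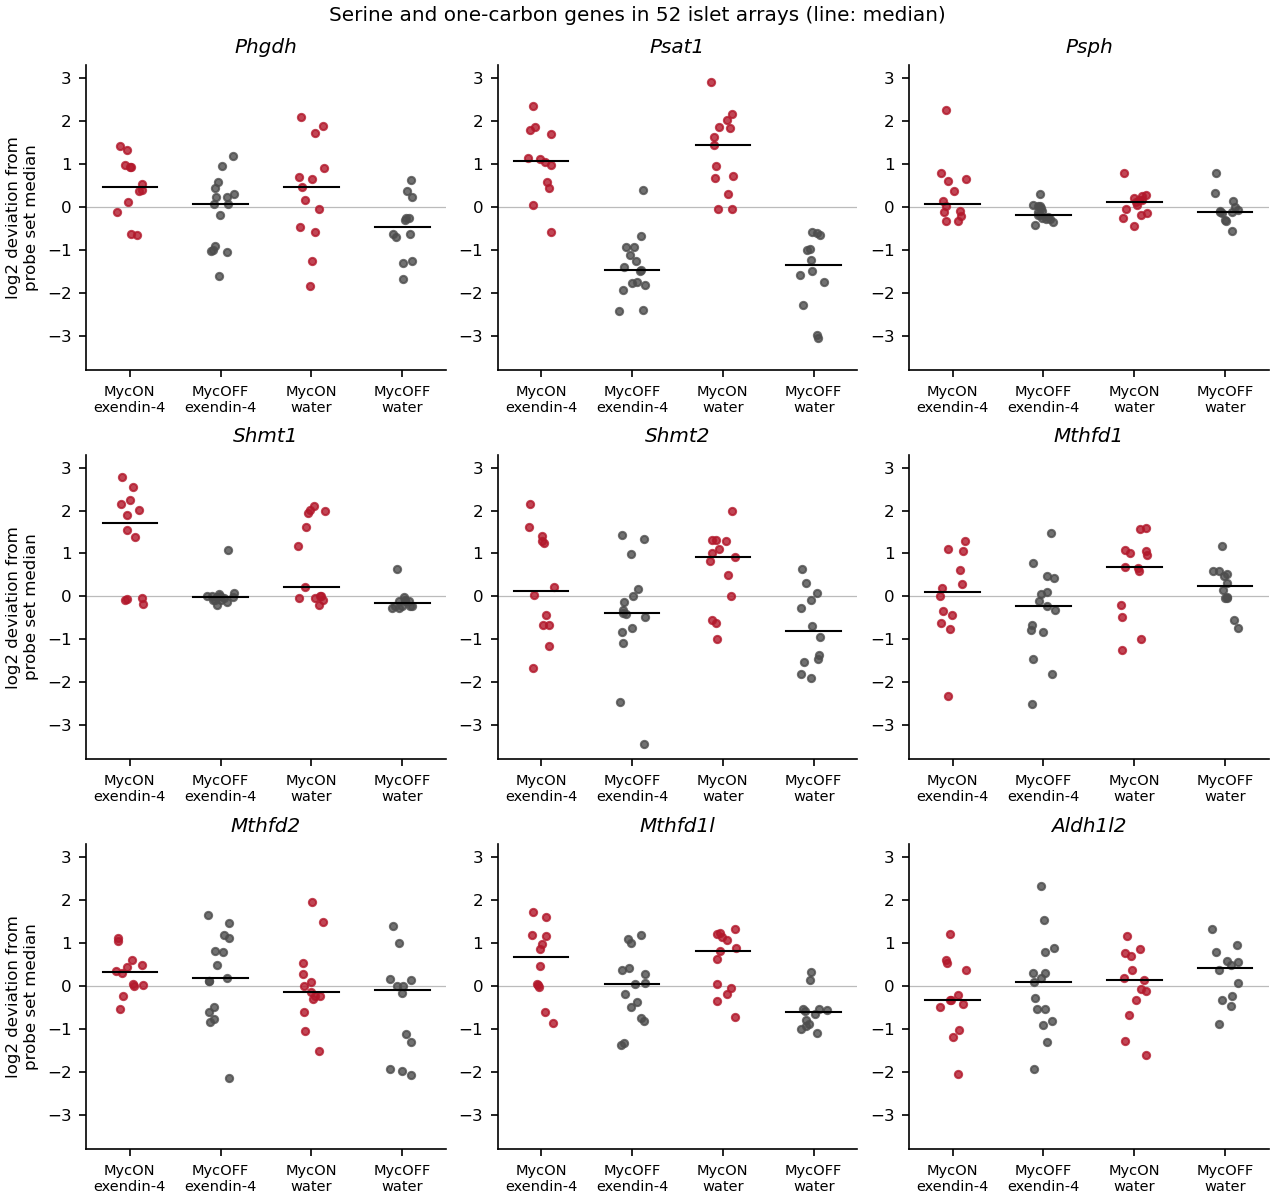
Log2 deviation of each gene from its own median (vertical axis) in the 52 kept arrays, by MYC state and injection. Points are arrays and lines are medians. Psat1 is the gene whose MycON water arrays, at -0.04 to 2.91, all lie above the MycOFF water arrays, at -3.06 to -0.59, and Shmt1 lies near 0 in nearly all MycOFF arrays.

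Promoter sequences are shown for the 3 genes of the set whose window holds CACGCG, a variant of the E-box bound by MYC and related proteins. RefSeq windows on GRCm38.p6, from 250 bases before to 50 bases after an annotated transcription start, were found for 8 of the 9 genes and gave 9 windows, since Psat1 has a pair of starts. Aldh1l2 was not matched. Capitals mark CACGCG, read on either strand, and each sequence is written 5′ to 3′ on the strand of the gene. All 4 windows lie on the minus strand: Psat1 start 1 at chr19:15924573-15924872, Psat1 start 2 at chr19:15925010-15925309, Shmt1 at chr11:60811216-60811515 and Shmt2 at chr10:127522395-127522694.
Psat1 start 1: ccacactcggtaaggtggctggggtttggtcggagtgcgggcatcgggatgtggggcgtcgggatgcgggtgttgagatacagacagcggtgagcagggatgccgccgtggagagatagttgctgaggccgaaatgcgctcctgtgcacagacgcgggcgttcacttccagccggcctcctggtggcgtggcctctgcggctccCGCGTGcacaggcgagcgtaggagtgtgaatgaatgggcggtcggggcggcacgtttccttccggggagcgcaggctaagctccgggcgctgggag
Psat1 start 2: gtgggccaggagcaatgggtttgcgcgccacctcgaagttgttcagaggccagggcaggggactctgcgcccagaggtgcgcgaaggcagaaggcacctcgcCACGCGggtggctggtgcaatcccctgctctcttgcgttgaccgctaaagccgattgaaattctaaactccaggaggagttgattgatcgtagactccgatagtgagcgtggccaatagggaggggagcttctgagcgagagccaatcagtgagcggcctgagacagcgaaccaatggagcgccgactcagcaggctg
Shmt1: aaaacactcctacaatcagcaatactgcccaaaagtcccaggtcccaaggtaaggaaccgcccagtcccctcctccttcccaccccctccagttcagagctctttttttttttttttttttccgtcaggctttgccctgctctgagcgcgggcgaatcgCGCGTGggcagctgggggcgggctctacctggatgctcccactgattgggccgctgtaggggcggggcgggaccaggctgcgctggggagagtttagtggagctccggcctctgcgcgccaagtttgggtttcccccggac
Shmt2: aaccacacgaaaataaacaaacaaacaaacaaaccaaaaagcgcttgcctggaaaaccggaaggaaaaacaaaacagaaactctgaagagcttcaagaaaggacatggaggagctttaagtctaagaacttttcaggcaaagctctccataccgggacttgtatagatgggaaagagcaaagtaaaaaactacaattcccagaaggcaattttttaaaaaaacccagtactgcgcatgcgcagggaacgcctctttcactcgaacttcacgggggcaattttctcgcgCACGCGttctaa
The first base of the match lies at -46 and -148 from the Psat1 starts, at -91 in Shmt1 and at 39 in Shmt2. CACGCG is thus held by 4 of the 9 windows, against 9.27% of all 32851 windows. The canonical E-box CACGTG was found in 0 of the 9 windows, against 7.15% of all windows. TGATGNAA, the core of the element bound by the stress factor ATF4, was also found in 0, against 3.97%. GGGCGG, the GC box, was found in 5 of the 9 windows, against 35.7% of all windows. All motifs were searched on both strands and no match of one motif overlaps a match of another in these windows. These matches describe letters in the windows only. Psat1, Shmt1 and Shmt2 each passed the test in at least 1 averaged contrast below, as did Phgdh and Mthfd1l, whose windows hold no CACGCG.

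Psat1 encodes phosphoserine aminotransferase, the middle enzyme of serine synthesis, and lies on chromosome 19. With exendin-4 its deviation had a lowest, median and highest value of -0.59, 1.08 and 2.36 in the 12 MycON arrays, against -2.42, -1.47 and 0.40 in the 15 MycOFF arrays. With water it had -0.04, 1.45 and 2.91 in the 13 MycON arrays, against -3.06, -1.36 and -0.59 in the 12 MycOFF arrays. With water all 13 MycON arrays stood above all 12 MycOFF arrays, which 0.0455% of all tested genes did. With exendin-4 the groups overlapped: 10 of 12 MycON arrays stood above all 15 MycOFF arrays (the groups were fully apart in 0.0228% of genes), and the highest MycOFF array was the 72 h replicate 2, at 0.40. That array also had the highest mean of the stromal markers among the kept arrays, 2.83. Its mean of the proliferation markers, 1.13, was the highest among the kept MycOFF arrays. The part of either in its Psat1 value was not tested. The fitted difference was 2.36 ± 0.30 (SE) with exendin-4 (5.13-fold, limma adjusted p = 4.3e-06) and 2.86 ± 0.31 with water (7.24-fold, limma adjusted p = 2.8e-07). A second Psat1 probe set differed by 1.93 ± 0.27 with exendin-4 and by 2.21 ± 0.28 with water, and passed in both. Of all named genes, 99.8% had a narrower interquartile range over the kept arrays.

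Phgdh, on chromosome 3, encodes the dehydrogenase of the first step. Its deviation had a lowest, median and highest value of -0.65, 0.47 and 1.41 in MycON arrays with exendin-4, against -1.61, 0.06 and 1.18 in MycOFF arrays with exendin-4. With water the values were -1.85, 0.46 and 2.10 in MycON arrays, against -1.69, -0.47 and 0.63 in MycOFF arrays. The MYC groups overlapped with both injections. The difference was 0.63 ± 0.23 with exendin-4 (limma adjusted p = 0.1) and 0.87 ± 0.24 with water (limma adjusted p = 0.0225), so Phgdh passed with water alone, and the difference between these values was not called (see the interaction below). All 4 Phgdh probe sets carry the x_at suffix, by which the manufacturer marks probes that may bind near-identical transcripts, so Phgdh values are uncertain. The other 3 differed by 0.44 to 0.62 with exendin-4 and by 0.60 to 0.66 with water, and did not pass.

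Psph, on chromosome 5, encodes the phosphatase of the last step and had 1 probe set. It varied little, with 49.6% of genes below its interquartile range. Its median was 0.08 in MycON arrays, against -0.20 in MycOFF arrays, with exendin-4, and 0.12 in MycON arrays, against -0.11 in MycOFF arrays, with water. The difference was 0.50 ± 0.17 with exendin-4 (limma adjusted p = 0.0746) and 0.11 ± 0.18 with water (limma adjusted p = 0.86), and neither passed. The first of these leaned on 1 array: MycON with exendin-4 at 16 h, replicate 1, stood at 2.26, and without it the difference was 0.27.

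**Figure D2:**
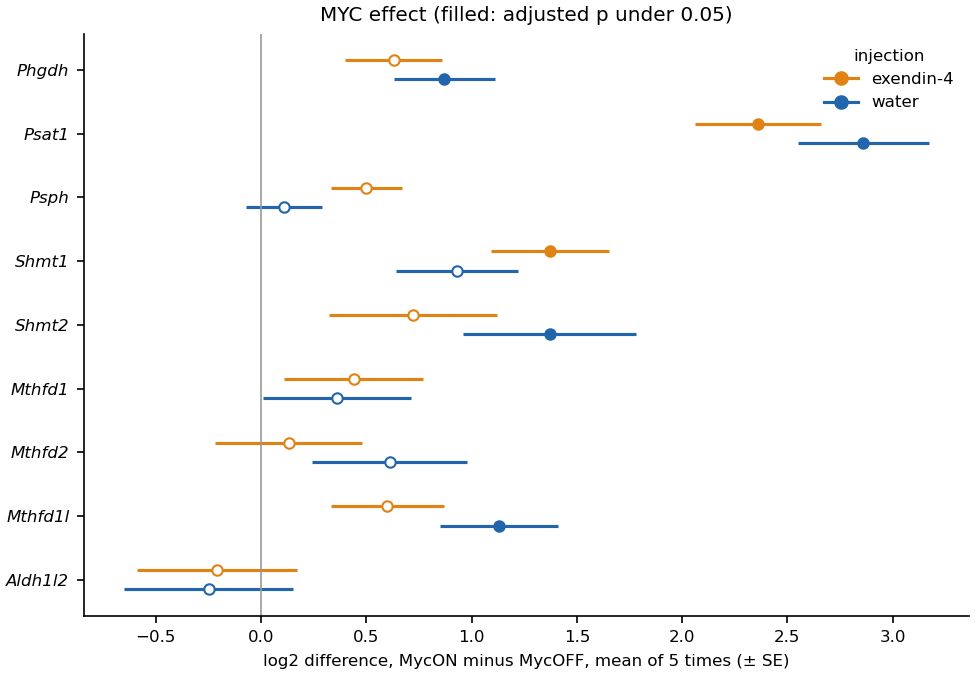
MycON minus MycOFF difference (log2, horizontal axis, ± SE, mean of the 5 times) for each of the 9 genes, with exendin-4 above and water below. Filled points have an adjusted p under 0.05: Psat1 (2.36) and Shmt1 (1.37) with exendin-4, and Phgdh (0.87), Psat1 (2.86), Shmt2 (1.37) and Mthfd1l (1.13) with water.

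Shmt1, the cytosolic enzyme that moves the one-carbon unit from serine onto folate, lies on chromosome 11. Its lowest, median and highest values were -0.17, 1.72 and 2.79 in MycON arrays with exendin-4, against -0.20, -0.02 and 1.09 in MycOFF arrays with exendin-4. With water they were -0.20, 0.21 and 2.11 in MycON arrays, against -0.28, -0.16 and 0.63 in MycOFF arrays. The MycON arrays fell into separate levels. A value above 1 was found in 14 of 25 MycON arrays and in 1 of 27 MycOFF arrays, while the other 11 MycON arrays and 25 of the MycOFF arrays lay within 0.3 of 0. The 1 high MycOFF array was replicate 3 with exendin-4 at 4 h, at 1.09. Since values are relative to the median of the probe set, whether those near 0 lie at the array background cannot be read. The fold changes of Shmt1 are uncertain for that reason. MycON arrays near 0 occurred at every time, and at 72 h they were 5 of 6. Within groups, Shmt1 had a Pearson's r of 0.65 with the mean of the proliferation markers, and in several groups the high arrays were those with the higher mean. With water at 16 h, Shmt1 stood at 2.11 and 0.00 in MycON arrays whose proliferation means were 3.75 and 1.38. With exendin-4 at 16 h it stood at 2.56 and -0.17 beside means of 2.71 and 0.12. With water at 72 h it stood at 2.02 beside a mean of 3.10, and at -0.20 and -0.03 beside 0.09 and 0.32. Between groups the level did not always follow this mean. The 3 MycON exendin-4 arrays at 72 h stood at -0.09, -0.05 and -0.03 beside means of 0.88, 1.00 and 1.48. At 4 h, 4 of the 5 MycON arrays stood at 1.18 to 2.15 beside means of -0.40 to 0.05. The remaining MycON array at 4 h, water replicate 1, stood at -0.09 beside -0.55. The difference was 1.37 ± 0.28 with exendin-4 (2.58-fold, limma adjusted p = 0.00197) and 0.93 ± 0.29 with water (limma adjusted p = 0.0503), so only the first passed. Of the other 3 Shmt1 probe sets, 1 passed with exendin-4 (0.60 ± 0.16, limma adjusted p = 0.031), and the others differed by 0.38 and -0.00. With water these 3 differed by 0.57, 0.32 and -0.05, and none passed.

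Shmt2, on chromosome 10, is the mitochondrial counterpart. Its lowest, median and highest values were -1.67, 0.13 and 2.16 in MycON arrays with exendin-4, against -3.44, -0.39 and 1.42 in MycOFF arrays with exendin-4. With water they were -0.99, 0.91 and 1.98 in MycON arrays, against -1.90, -0.81 and 0.64 in MycOFF arrays. With water 8 of 13 MycON arrays stood above all MycOFF arrays, and with exendin-4 2 of 12 did. The difference was 0.72 ± 0.40 with exendin-4 (limma adjusted p = 0.347) and 1.37 ± 0.41 with water (limma adjusted p = 0.0429). This last call was weak: it ended without any 1 of 18 arrays, 8 MycON and 10 MycOFF arrays with water (adjusted p up to 0.132). In the fit of all probe sets the same Shmt2 probe set did not pass with water (limma adjusted p = 0.0767), nor did the other 3, at 0.43, 0.17 and 0.32. The probe set that stood for Shmt2 carries the x_at suffix too, and the other 3 varied less, with interquartile ranges of 0.24 to 0.34, against 1.75 for it.

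**Figure D3:**
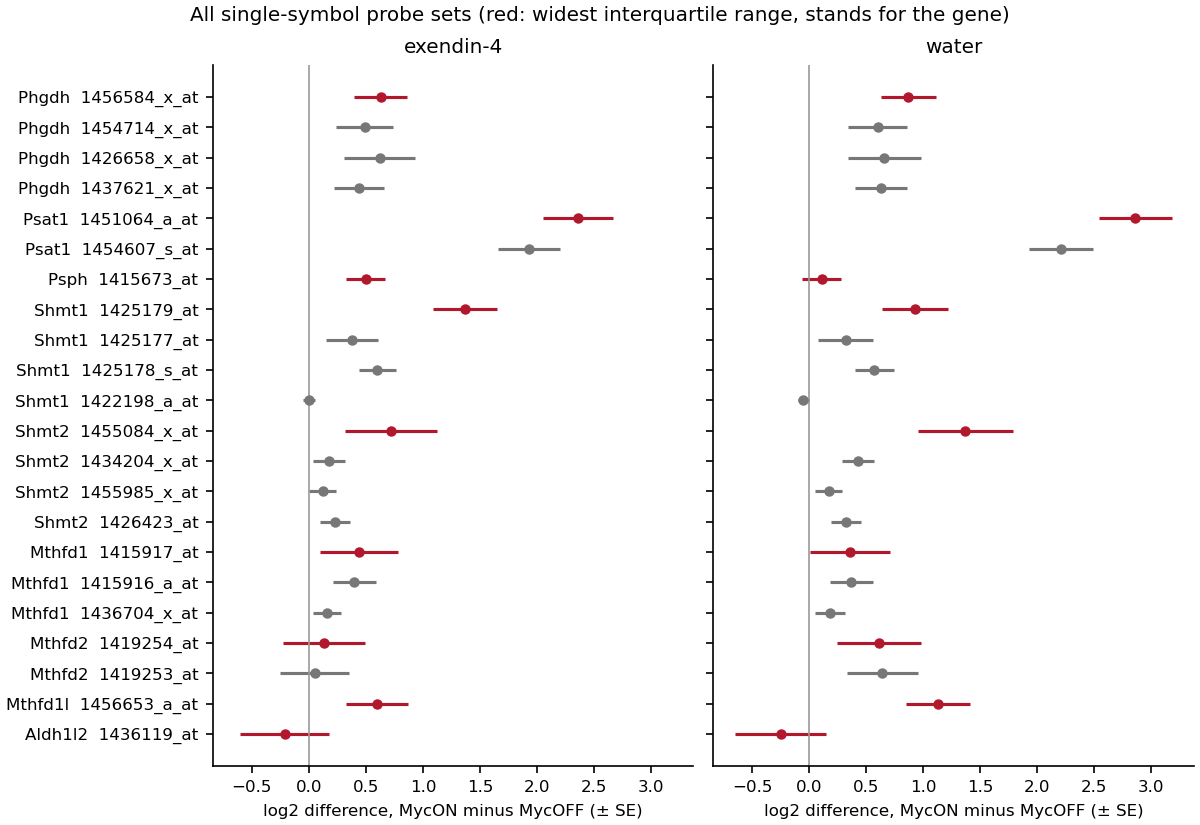
MycON minus MycOFF difference (log2, horizontal axes, ± SE) of all 22 probe sets, with exendin-4 on the left and water on the right. Red marks the probe set that stood for its gene, and grey the others. Both Psat1 probe sets lie near 2 or above, while the Shmt2 probe set in red, at 0.72 and 1.37, lies apart from its other 3, at 0.12 to 0.23 and 0.17 to 0.43.

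Mthfd1l, on chromosome 10, encodes the mitochondrial enzyme that releases formate, and had 1 probe set. Its lowest, median and highest values were -0.86, 0.67 and 1.73 in MycON arrays with exendin-4, against -1.38, 0.04 and 1.18 in MycOFF arrays with exendin-4. With water they were -0.72, 0.82 and 1.32 in MycON arrays, against -1.10, -0.62 and 0.33 in MycOFF arrays. With water 8 of 13 MycON arrays stood above every MycOFF array. The difference was 0.60 ± 0.27 with exendin-4 (limma adjusted p = 0.213) and 1.13 ± 0.28 with water (limma adjusted p = 0.0108), and no single array ended the call with water.

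The folate dehydrogenases Mthfd1, on chromosome 12, and Mthfd2, on chromosome 6, did not pass in either averaged contrast, nor did Aldh1l2. Mthfd1, the cytosolic enzyme with 3 activities, differed by 0.44 ± 0.33 with exendin-4 and by 0.36 ± 0.35 with water (limma adjusted p = 0.532 and 0.698). Its other probe sets gave 0.40 and 0.16 with exendin-4, and 0.37 and 0.18 with water. Mthfd2, the mitochondrial enzyme that is high in embryos and tumours, differed by 0.13 ± 0.35 with exendin-4 and by 0.61 ± 0.37 with water (limma adjusted p = 0.866 and 0.423). Aldh1l2, the mitochondrial enzyme that oxidises formyl folate to carbon dioxide, lies on chromosome 10 and was the 1 gene of the set with a difference below 0 in both contrasts, -0.21 ± 0.38 with exendin-4 and -0.25 ± 0.40 with water (limma adjusted p = 0.801 and 0.864). The MYC groups of all 3 genes overlapped in both contrasts.

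The time course was read from the MycON minus MycOFF difference at each time, averaged over both injections. Psat1 differed by 1.88 ± 0.47 at 4 h, 3.46 ± 0.47 at 8 h, 2.24 ± 0.52 at 16 h, 3.04 ± 0.50 at 32 h and 2.43 ± 0.47 at 72 h. It passed at all 5 times, with limma adjusted p of 0.0223, 1.3e-05, 0.0141, 2.7e-04 and 0.00304. Over the times in the same order, 1.58%, 3%, 2.06%, 2.36% and 1.15% of all genes rose. Every MycON array stood above every MycOFF array at 4, 8, 16 and 32 h, as it did for 2.07%, 3.29%, 3.3% and 5.27% of genes. At 4 h the 5 MycON arrays stood at 0.04 and 0.45 with exendin-4 and at 0.73, 0.96 and 2.03 with water, and the 6 MycOFF arrays at -1.59 to -0.68 (median -1.12). At 16 h the separation was slight, with the lowest MycON array at -0.59 and the highest MycOFF array at -0.62. The calls at 8 and 32 h held without any single array. The call at 4 h ended without MycON exendin-4 replicate 1 or 2, MycON water replicate 2, MycOFF exendin-4 replicate 3 or MycOFF water replicate 2 (adjusted p up to 0.111). The call at 16 h ended without MycON exendin-4 replicate 3, MycON water replicate 1 or MycOFF water replicate 3 (up to 0.18), and the call at 72 h without MycOFF water replicate 3 (0.0636).

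The other genes had 4 further calls, which makes 9 over the 5 times. Phgdh passed at 8 h and 32 h, Shmt1 at 8 h and Mthfd1l at 32 h. At 8 h Shmt1 stood at 2.79, 2.02 and 1.89 in MycON arrays with exendin-4 and at 2.00, 0.21 and 0.01 in MycON arrays with water, against -0.22 to -0.02 in the 5 MycOFF arrays (difference 1.56 ± 0.44, limma adjusted p = 0.0336). All 6 MycON arrays thus stood above the MycOFF arrays, the lowest at 0.01 and the highest MycOFF array at -0.02. The call ended without MycON exendin-4 replicate 1, MycON water replicate 1, MycOFF exendin-4 replicate 1 or 2, or MycOFF water replicate 1 or 3 of that time (adjusted p up to 0.143). At 32 h Mthfd1l stood at 1.17, 1.73, 1.22 and 1.32 in the 4 MycON arrays, against -1.10 to 0.41 in the 6 MycOFF arrays, with no overlap (difference 1.82 ± 0.44, limma adjusted p = 0.0139). It did not pass without MycON exendin-4 replicate 2 or MycON water replicate 3 (adjusted p up to 0.086). Also at 32 h, and with no call, all MycON arrays stood above all MycOFF arrays for Shmt2 (2.08 ± 0.66, limma adjusted p = 0.0752) and Mthfd1 (1.37 ± 0.55, limma adjusted p = 0.198), as well as for Phgdh, so that 5 of the 9 genes were apart at that time. At 8 h Psat1, Psph, Shmt1 and Shmt2 were apart, at 4 and 16 h Psat1 alone, and at 72 h no gene of the set, against 0.395% of all genes at 72 h. Mthfd2 had its largest difference at 16 h (2.05 ± 0.61, limma adjusted p = 0.0648), with its 4 MycON arrays at 0.08 to 1.95 and its 5 MycOFF arrays at -2.14 to 0.78.

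**Figure D4:**
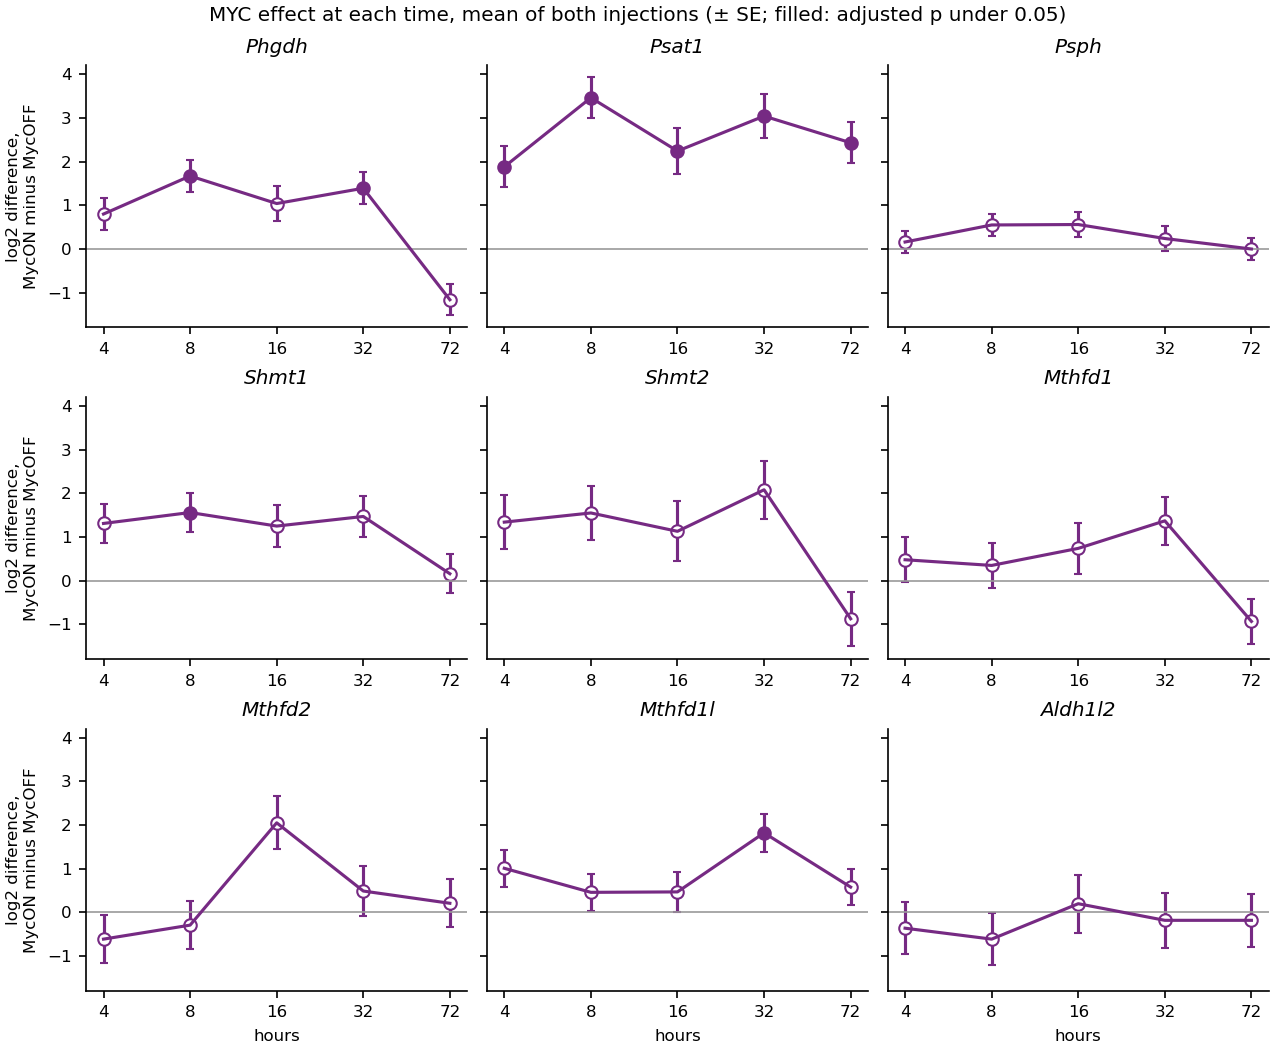
MycON minus MycOFF difference (log2, vertical axis, ± SE, mean of both injections) at 4, 8, 16, 32 and 72 h for each gene. Filled points have an adjusted p under 0.05. Psat1 is filled at all 5 times, and Phgdh passes at 8 and 32 h (1.67 and 1.39) and lies at -1.16 at 72 h.

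Phgdh was the 1 gene of the 9 whose MYC difference changed over time (limma moderated F test, adjusted p = 0.00586, which 1.59% of all genes passed). The difference was 0.80 ± 0.36 at 4 h, 1.67 ± 0.36 at 8 h, 1.04 ± 0.39 at 16 h, 1.39 ± 0.37 at 32 h and -1.16 ± 0.36 at 72 h. At 8 h the 6 MycON arrays had a lowest, median and highest value of 0.40, 1.19 and 2.10, against -1.61, -1.03, -0.70, 0.23 and 0.57 in the 5 MycOFF arrays (limma adjusted p = 0.00402). At 72 h the order was the other way round: the 6 MycON arrays had -1.85, -0.64 and -0.13, against -0.63, 0.22, 0.36, 0.96 and 1.18 in the MycOFF arrays, but the difference at that time alone did not pass (limma adjusted p = 0.117). The sign was the same with each injection, -1.26 ± 0.47 with exendin-4 and -1.07 ± 0.53 with water at 72 h, against 1.62 ± 0.47 and 1.72 ± 0.53 at 8 h. The change over time passed without any 1 of the 52 arrays (adjusted p up to 0.0365). The call at 8 h ended without MycOFF water replicate 1 of that time (0.0624), and the call at 32 h ended without MycON exendin-4 replicate 1 or 2, MycON water replicate 2, MycOFF exendin-4 replicate 1 or MycOFF water replicate 1 or 2 of that time (up to 0.203). For the other 8 genes the F test gave adjusted p of 0.278 (Shmt2) to 0.966 (Aldh1l2), so a change was not shown, although Shmt2 (-0.87 ± 0.62) and Mthfd1 (-0.93 ± 0.52) also lay below 0 at 72 h and Shmt1 was at 0.16 ± 0.44.

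**Figure D5:**
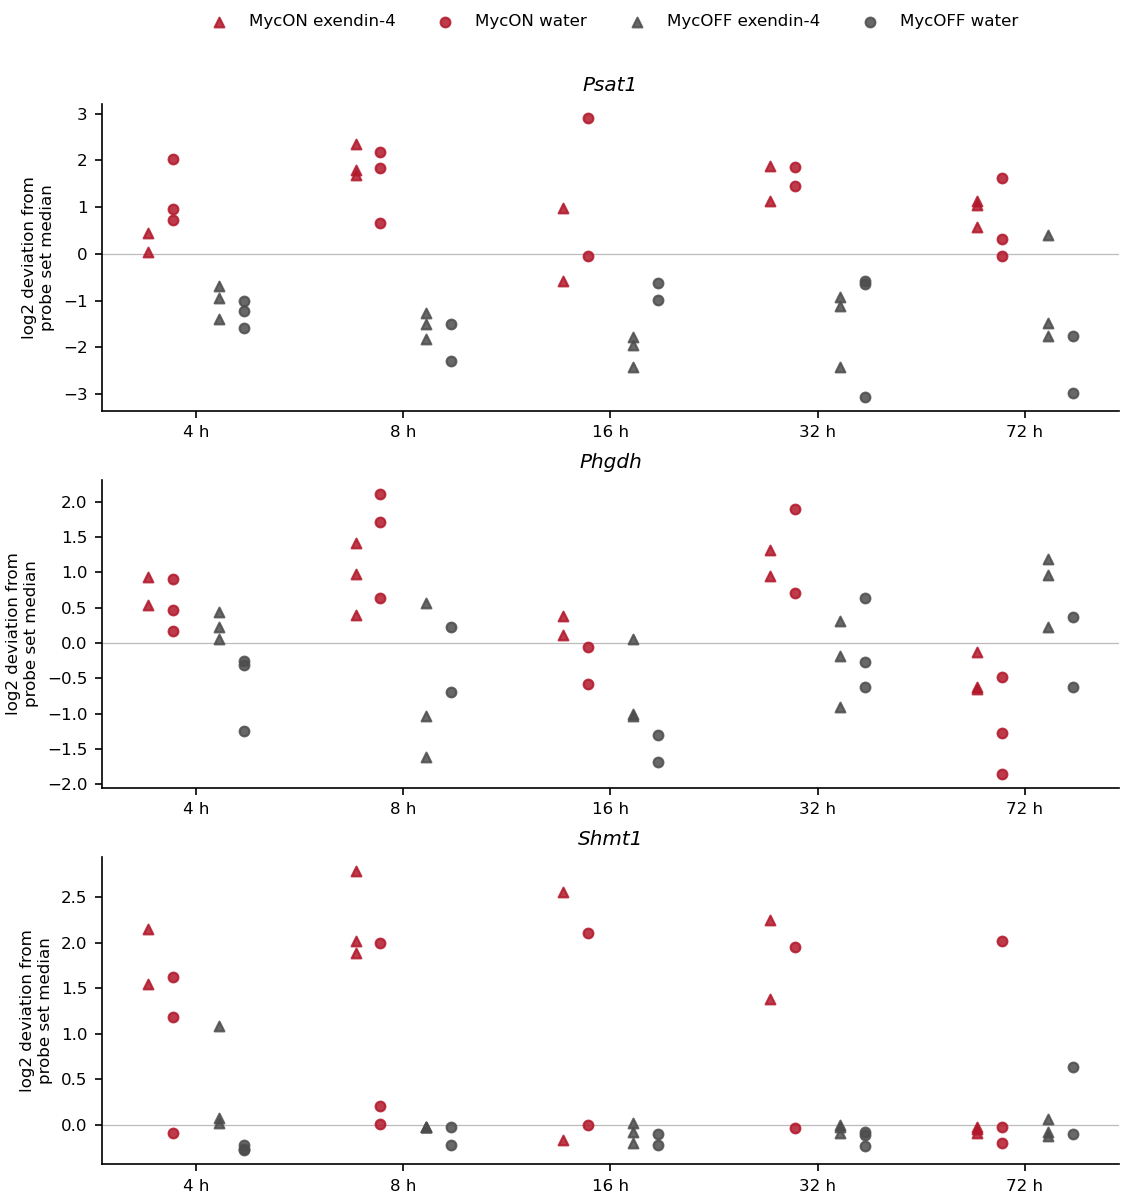
Log2 deviation (vertical axes) of Psat1, Phgdh and Shmt1 in each kept array at each time. Red points are MycON and grey points MycOFF, triangles exendin-4 and circles water. The MycON arrays of Phgdh lie at -1.85 to -0.13 at 72 h, while Psat1 stays at -0.04 to 1.62 there.

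The 72 h arrays also differed in markers of other cells. Immune markers (16 genes measured, 14 tested) averaged a median of 1.68 in MycON arrays at 72 h (range -0.13 to 2.43). In MycOFF arrays at 72 h the median was -0.09 (-0.41 to 0.35), and 7 of the 14 tested genes rose at that time. Stromal markers (11 tested) had a median of 1.16 (-0.66 to 2.73) in MycON arrays at 72 h, against 0.20 (-0.50 to 2.83) in MycOFF arrays, and 1 of 11 rose. The part of these markers in the Phgdh result was not tested. A measure of RNA quality, the log2 difference between the 3′ and 5′ control probe sets of Gapdh, also differed between the MYC states at some times. At 8 h its median was 0.69 in MycON arrays (-0.02 to 1.88), against 0.36 in MycOFF arrays (-0.15 to 0.84). At 32 h it was -0.51 in MycON arrays (-0.97 to 0.45), against 0.41 in MycOFF arrays (-0.90 to 0.70). At 72 h it was -1.05 in MycON arrays (-1.23 to 2.60), against 0.41 in MycOFF arrays (-0.32 to 2.70), so the groups overlapped at each of these times. The same measure from Actb had medians of 0.12 in MycON and -0.15 in MycOFF arrays at 8 h. At 32 h they were -0.36 and 0.15, and at 72 h -0.24 and -0.21. Within groups, Phgdh had a Pearson's r of 0.52 with the Gapdh measure and -0.25 with that of Actb. Between both measures r was -0.06, and that of Actb was not used as a covariate. With the Gapdh signal as a covariate, chosen after the data were seen, Phgdh differed by 1.48 ± 0.31 at 8 h and by -0.81 ± 0.33 at 72 h. Its change over time passed (limma F test, adjusted p = 0.00886). In that fit Phgdh also passed with exendin-4 (0.67 ± 0.20, limma adjusted p = 0.0346), while Shmt2 with water did not (limma adjusted p = 0.0526). The MycON water array with the lowest immune and stromal means at 72 h was replicate 3 (-0.13 and -0.66). It also had the highest value of the 3 MycON water arrays at that time for each of the 9 genes (Phgdh -0.48, Shmt1 2.02 and Shmt2 1.32, for example). The share of all genes highest in that array was not counted, so this is not shown to be particular to the 9 genes. Its proliferation mean, 3.10, was the highest of the 72 h arrays in use. Without the 72 h arrays, Phgdh differed by 1.10 ± 0.26 with exendin-4 (limma adjusted p = 0.00863) and by 1.35 ± 0.27 with water (limma adjusted p = 0.00171). In that fit 3 of the 9 genes passed with exendin-4 (Phgdh, Psat1 and Shmt1, at 1.71 ± 0.32) and 5 of 9 with water (Phgdh, Psat1, Shmt1, Shmt2 and Mthfd1l). Of all 13176 genes, 831 passed with exendin-4 and 911 with water in that fit, in either direction. With the 72 h arrays included the counts were 763 and 737. The fit without the 72 h arrays was chosen after the data were seen.

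Endocrine markers had 7 of 17 differences above 0 with exendin-4 (median -0.13) and 1 of 17 with water (median -0.35). At 4 and 8 h it was 0 of 17 (medians -0.45 and -0.57), and at 16 h 11 of 17 (median 0.17). Within groups, Pearson's r with the endocrine mean ran from -0.26 (Aldh1l2) to 0.64 (Mthfd1). The part of these markers in the 9 genes was not tested. Acinar markers, which would come with exocrine tissue at the islet edge, had no gene past the test in either contrast (0 of 19). Still, 17 of 19 differences were above 0 with exendin-4 (median 0.41) and 18 of 19 with water (median 0.50). With each array's mean acinar level as a covariate, Psat1 differed by 2.41 with exendin-4 and 2.91 with water, Shmt1 by 1.39 and 0.96, and the calls of the averaged contrasts were those of the fit without it. Proliferation genes rose with both injections (8 of 11 in each, medians 1.83 with exendin-4 and 1.85 with water). At 4 h 0 of the 11 proliferation genes passed and the median of their differences was -0.11. The array means of these markers at 4 h had a median of -0.06 in MycON arrays (-0.55 to 0.05), against -0.61 in MycOFF arrays (-0.98 to 0.56). At 8 h 7 of 11 passed, with a median of 2.18. Proliferation means ranged from -0.06 to 2.71 in MycON arrays, against -2.32 to 1.13 in MycOFF arrays, with exendin-4, and from -0.55 to 3.75 in MycON arrays, against -1.62 to -0.49 in MycOFF arrays, with water. Pearson's r with this mean within groups was 0.57 for Psat1 and 0.65 for Shmt1. For the other genes it ran from -0.1 (Psph) to 0.29 (Mthfd2). At 16 h, for example, Psat1 stood at 2.91 and -0.04 in the MycON water arrays with means of 3.75 and 1.38. In the MycON exendin-4 arrays of that time it stood at 0.98 and -0.59 beside means of 2.71 and 0.12. With the proliferation mean as a covariate, also chosen after the data were seen, 0 of the 9 genes passed with exendin-4 in limma and 1, Psat1, passed with water. Psat1 then differed by 1.29 ± 0.37 with exendin-4 (limma adjusted p = 0.0743) and by 1.74 ± 0.38 with water (limma adjusted p = 0.0239), and it passed at 4 h (1.76 ± 0.40) and 32 h (2.00 ± 0.49) only. Shmt1 differed by 0.25 ± 0.32 with exendin-4 and by -0.23 ± 0.33 with water. The change of Phgdh over time passed in this fit too (limma F test, adjusted p = 0.00762). Since the covariate itself differs between the MYC states, its share and that of MYC in these values cannot be told apart.

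Exendin-4 itself was not followed by a called difference in any of the 9 genes. Exendin-4 minus water gave 0 of 9 calls with MYC on and 0 of 9 with MYC off by limma, while 0.0683% and 0.228% of all genes passed in these contrasts. At an unadjusted p under 0.05 the counts were 0 and 1 of 9, the 1 being Mthfd2 with MYC off. Mthfd2 had a lowest, median and highest value of -2.14, 0.19 and 1.65 in MycOFF arrays with exendin-4, against -2.08, -0.09 and 1.40 in MycOFF arrays with water, which overlap almost fully (0.74 ± 0.35, limma adjusted p = 0.625). The differences of Psat1 were -0.34 ± 0.31 with MYC on and 0.16 ± 0.30 with MYC off, and those of Shmt1 0.56 ± 0.29 and 0.12 ± 0.28.

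Whether the MYC difference itself depended on the injection was asked with the interaction, the MYC difference with exendin-4 minus that with water. None of the 9 genes passed in limma, and 0% of all genes did. At an unadjusted p under 0.05 there were 250 genes and 0 of the 9. The interaction ran from -0.64 ± 0.57 (Shmt2) to 0.44 ± 0.40 (Shmt1), with Psat1 at -0.50 ± 0.44, Mthfd1l at -0.53 ± 0.39 and Phgdh at -0.24 ± 0.33. The calls of Shmt1 with exendin-4 alone and of Phgdh, Shmt2 and Mthfd1l with water alone are therefore not shown to differ between injections, nor is it shown that they are equal, since each interaction has a standard error of 0.24 to 0.57.

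Of 34 other genes of folate, glycine, methionine and serine handling, 30 were measured and 25 tested. With exendin-4 2 rose and 1 fell, and with water 3 rose and 0 fell, against 4.56% and 3.94% of all genes that rose. Gcsh, which encodes the lipoyl carrier protein of the glycine cleavage system, had a median of 0.30 in MycON arrays with exendin-4, against -0.09 in MycOFF arrays with exendin-4, and of 0.69 in MycON arrays with water, against -0.05 in MycOFF arrays with water. It rose by 0.42 ± 0.11 with exendin-4 and 0.53 ± 0.11 with water (limma adjusted p = 0.0133 and 0.00321), and the first call ended without MycON exendin-4 replicate 2 at 32 h (0.0549). Mtrr, which encodes the reductase that keeps methionine synthase active, rose by 1.25 ± 0.30 with exendin-4 and 1.38 ± 0.31 with water (limma adjusted p = 0.00925 and 0.00546). Its MycON arrays ranged from -1.57 to 1.63 with exendin-4, against -3.00 to 0.64 in MycOFF arrays, and from -0.60 to 2.31 with water, against -1.50 to 0.56 in MycOFF arrays. Slc19a1, the reduced folate carrier of the plasma membrane, rose with water (1.11 ± 0.28, limma adjusted p = 0.0142) and had a median of 1.22 in MycON arrays with water, against -0.03 in MycOFF arrays with water. This call ended without MycOFF water replicate 3 at 72 h (0.055). Another Slc19a1 probe set passed with water (1.04 ± 0.28, limma adjusted p = 0.0367), and one more, which hardly varied (interquartile range 0.04), gave 0.00.

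Slc1a4, a carrier of neutral amino acids that include serine, was the 1 of these genes to fall, by 0.89 ± 0.22 on the log2 scale with exendin-4 (limma adjusted p = 0.0109). Its lowest, median and highest values were -1.49, -0.19 and 1.33 in MycON arrays with exendin-4, against -0.46, 0.75 and 2.02 in MycOFF arrays with exendin-4. The groups overlapped. The call ended without MycON exendin-4 replicate 2 at 4 h (0.053), and without the 72 h arrays the difference was -0.51 ± 0.24 (limma adjusted p = 0.225). At 72 h alone it was -1.59 ± 0.34 (limma adjusted p = 0.00966), where 0.228% of all genes fell. Its other 2 probe sets, with interquartile ranges of 0.05 and 0.06, gave 0.05 and -0.08 with exendin-4. With water the difference was 0.10 ± 0.23, and the interaction did not pass (-0.99 ± 0.32, limma adjusted p = 1). Like Phgdh, it changed over time in the F test (adjusted p = 0.0319), as did Gcsh (0.0164) and Slc19a1 (0.0168). At 4 h 4 of the 25 genes rose: Gcsh (0.97 ± 0.17), Mtrr (1.99 ± 0.47), Slc19a1 (1.80 ± 0.43) and Cth (0.77 ± 0.20), which encodes the enzyme that splits cystathionine to cysteine. At 8 h Gcsh, Mtrr and Slc19a1 rose and at 32 h Gcsh and Slc19a1, while 0 rose at 16 and 72 h.

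Across the 20 group means, the patterns of the 9 genes resembled each other to different degrees. As a description over means that share arrays, time and MYC state, Pearson's r was 0.78 between Psat1 and Mthfd1l, 0.74 between Psat1 and Shmt1, 0.74 between Phgdh and Shmt2, and 0.53 between Psat1 and Phgdh. Aldh1l2 resembled none of the others closely, with r from -0.46 (Shmt1) to 0.14 (Mthfd2). Among all other tested genes, those most like Psat1 were Tspan4 (r = 0.934), a tetraspanin, Mcm6 (0.933), a subunit of the replicative helicase, and Wdhd1 (0.927), a replication factor. Those most like Phgdh were Tmem238 (0.910), Syngr2 (0.902) and Srm (0.901), the spermidine synthase gene. For Shmt1 they were Hs6st2 (0.877), Nup85 (0.870) and Dnaaf2 (0.867). For Shmt2 they were Cherp (0.911), Ruvbl2 (0.877) and Gemin8 (0.873), and for Mthfd1l Top1mt (0.903), the mitochondrial topoisomerase gene, Rcc2 (0.889) and Zdhhc9 (0.843). For Mthfd1 they were Prps1 (0.873), which encodes a phosphoribosyl pyrophosphate synthetase, Tsr2 (0.871) and Kti12 (0.865). For Mthfd2 they were Idh2 (0.819), Pigq (0.793) and M6pr (0.791), and for Psph Kifc1 (0.803), Klhdc10 (0.793) and Hnrnpl (0.790). Aldh1l2 had no close match, with Kctd6 at 0.678 and Trpm5 and Btrc both at 0.672.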

How the data were processed

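The authors deposited 1 log2 value for each of 45101 probe sets on each of 60 arrays. GCRMA and MAS5 are both named, per the submitters' processing notes, without saying which step they served. The log base is not given in the sources used here and was inferred from the deposited range of -12.3 to 12.8. Each probe set has a median of 0 over the 60 arrays (100.0% of probe sets, tolerance 1.0e-04), so a filter on low level could not be applied. Probe sets with 1 gene symbol in the platform annotation (34945, against 932 with several and 9160 with none; 64 controls left out) and an interquartile range at or above the 40th percentile (0.101) were kept. That filter can drop expressed genes that hardly vary.

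The 52 kept arrays entered a single limma model (3.58.1; R 4.3.3) with a mean for each of 20 groups, and eBayes moderation left 32 residual plus 2.75 prior degrees of freedom. Contrasts average the 5 times with equal weight, or both injections at each time, and an F test compares the MYC difference of later times with 4 h. P-values were adjusted by Benjamini-Hochberg over 13176 genes. The separate fit of all probe sets, used for values of single probe sets, was adjusted over all of them. The scripts were tested on simulated data. Alternatives were no filter, all 60 arrays, quantile normalization, the mean over probe sets, array weights, replicate number as a block, an acinar covariate, only the arrays compared, other probe sets and each array left out. The block within each time, the fit without 72 h and the covariates for proliferation and for the Gapdh control signal were added after the data were seen. Deviations from the group means had a median correlation of -0.04 between same-numbered arrays of a time (66 pairs, 15 above 0.1). Between arrays of different number it was 0.02 (136 pairs, 46 above 0.1). With groups this small, these correlations cannot decide whether the numbers pair the arrays.

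The named genes are the 9 members, the genes of the list of other pathway genes that passed in an averaged MYC contrast, and for each member the 3 genes with the highest correlation of group means. Cth, which passed at 4 h only, was named after its value was seen. The members and lists were chosen with earlier results of these data known. Promoters are from RefSeq's GRCm38.p6. Python 3.11.15, pandas 2.3.3, numpy 2.4.6, matplotlib 3.10.9 and the R package data.table (1.17.8) were used. The number of arrays limits the precision.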

Additional observations from a re-analysis of the deposited data

Results flagged for a closer look

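The MYC difference of Phgdh was unlike between times (limma moderated F test over the 5 times, adjusted p = 0.00586), with values above 0 at 4 to 32 h and below 0 at 72 h.

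Signal was also seen in the 8 arrays the submitters left out, 5 MycON and 3 MycOFF, which no comparison above used. In these, Phgdh reached 2.01 in MycON water replicate 1 at 32 h, above the highest kept MycOFF array (1.18). Only 1 of 8 arrays stood above it, and the median of Phgdh in the 8 was -1.36. Psat1 reached 2.33 in MycON exendin-4 replicate 3 at 32 h, against at most 0.40 in kept MycOFF arrays, with 5 of 8 above, of which 1 was a MycOFF array (water replicate 2 at 72 h, 1.43). Psph and Shmt1 reached 3.74 and 2.95, both in MycON water replicate 3 at 16 h, against at most 0.79 and 1.09 in kept MycOFF arrays, with 5 of 8 above for each. For each of these genes 1 of the 5 was a MycOFF array, water replicate 1 at 16 h for Psph (1.73) and water replicate 2 at 8 h for Shmt1 (1.75). The endocrine markers of the left-out arrays averaged -7.91 to -1.08, and the part of this in these values was not tested.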

How the results depend on the processing

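With all 60 arrays, the count of the 9 genes that passed was 2 with exendin-4, as in the report, 1 with water (Psat1), 4 over the 5 times and 0 for the change over time (Phgdh, adjusted p = 0.152), and 177 genes in all passed with water, against 737. The cause was not tested. The replicate block within each time left 2 with water (Phgdh and Psat1; adjusted p = 0.0502 for Mthfd1l and 0.0621 for Shmt2), and the replicate block over all times gave 5, with Shmt1 added (1.00, adjusted p = 0.0293). With the proliferation mean as a covariate the counts were 0 with exendin-4, 1 with water and 2 over the 5 times, with 166 and 57 genes in all passing with exendin-4 and water. The other alternatives kept the counts of the averaged contrasts within 1.5 times. Leaving out 1 array gave 2 to 4 genes with exendin-4 (4 without MycON exendin-4 replicate 1 at 4 h, when Psph and Mthfd1l were added), 2 to 5 with water (2 without MycON water replicate 1 at 16 h, MycOFF water replicate 1 at 8 h or MycOFF water replicate 3 at 72 h), 7 to 11 over the 5 times, and 1 to 1 for the change over time. It gave 0 to 0 for the exendin-4 effects and the interaction, whose counts were 0 under every alternative run.

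Phgdh with water ended without MycON water replicate 1 at 16 h or 2 at 32 h, or MycOFF water replicate 1 at 8 h or 3 at 72 h (adjusted p up to 0.0731), and with the mean over probe sets (0.0506). Shmt1 with water passed without any 1 of 10 arrays (adjusted p down to 0.0131) and with quantile normalization (0.0288) and the mean over probe sets (0.0491), and Shmt2 with water ended with no filter (0.0643). Psat1 with exendin-4 and with water passed in all of them except with exendin-4 beside the proliferation covariate (0.0743), but its calls at single times did not: 4 h ended with all 60 arrays and with the block within each time, 16 h with quantile normalization, array weights and that block, and 72 h with all 60 arrays; the proliferation covariate ended 8, 16 and 72 h. All 60 arrays ended Gcsh, Mtrr and Slc1a4 with exendin-4 (0.238, 0.0776 and 0.0566) and Slc19a1 with water (0.0548), and only the arrays compared ended Gcsh and Mtrr with exendin-4 (0.0661 and 0.0547). The proliferation covariate ended Gcsh with both injections (0.248 and 0.225), Slc1a4 with exendin-4 (0.275) and Slc19a1 with water (0.312). Signs turned, with no call, for Mthfd2 with exendin-4 (-0.14 with all 60 arrays, -0.03 with quantile normalization, -0.09 with array weights, -0.51 with the proliferation covariate and -0.01 to 0.28 with 1 array left out, lowest without MycOFF exendin-4 replicate 3 at 16 h), for Mthfd2 with water (-0.06) and Shmt1 with water (-0.23) with that covariate, for Shmt1 with water in 1 other probe set (-0.05) and for Slc1a4 with exendin-4 in 1 other probe set (0.05). Counts over all genes ranged from 166 to 1072 with exendin-4 and from 57 to 1162 with water.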
